A study of Homo sapiens with 4 samples.

Results

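Summits lying deep inside protein-coding genes were examined in 4 CUT&Tag libraries of 22RV1, an androgen receptor-positive human prostate carcinoma line derived from a xenograft. A summit was taken as deep when it lay inside a protein-coding gene of the RefSeq annotation (GRCh38), more than 5000 bp from both ends of every protein-coding gene and more than 2 Mb from the chromosome end, on chromosomes 1 to 22 or X. By this rule 5688 of the 24472 summits on these chromosomes and away from their ends were deep, out of 26756 listed in all. There were 598 of 3023 under PD0332991, 2171 of 9185 in the PD0332991 control, 463 of 2392 after RB siRNA and 2456 of 9872 in the siRNA control.

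The groups were 22RV1 cells given PD0332991 (palbociclib, an inhibitor of the kinases CDK4 and CDK6), the control of that treatment, 22RV1 cells given an siRNA against RB, and the control of that knockdown. Each group held 1 library, so differences between groups rest on single libraries and carry no p-value. The dose, the time and the antibody target are not given in the sources used here. Per the labels' protocols the cells were fixed with formaldehyde, the chromatin was sonicated, and input and precipitated samples were prepared. The assay reads DNA, so the knockdown of RB itself could not be checked from these lists.

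Many human genes carry more than one promoter, and a promoter far inside a gene starts a shorter transcript whose protein can lack the domains encoded upstream. Gene bodies also hold enhancers, which share with promoters an open chromatin structure. CDK4 and CDK6 phosphorylate RB and thereby release E2F transcription factors, whose targets are chiefly promoters of cell cycle and DNA replication genes. Many promoters in CpG islands carry the GC box, the letters GGGCGG, which factors of the SP and KLF families recognise.

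Levels are given in FPM (fragments per 1000000), the number of fragments at a summit that was solved from the deposited fold and p, scaled to the fragments of the library. The totals were derived with an assumed genome of 2.7 Gb and an assumed local window of 10000 bp. On these assumptions the libraries held 1909343 fragments under PD0332991, 2458774 in the PD0332991 control, 2423283 after RB siRNA and 3479671 in the siRNA control. A level of 5 FPM is then 9.55, 12.3, 12.1 and 17.4 fragments in the same 4 libraries. The deposited intervals run on over the genome, with median widths of 561 kb under PD0332991, 190 kb in its control, 722 kb after RB siRNA and 179 kb in the siRNA control, and each lists 1 summit. A lower summit inside an interval is therefore not listed, and the absence of a summit is not by itself the absence of signal. The modelled background, solved from the same lists, also differed. It came to 9592 read ends under PD0332991, 34562 in its control, 7641 after RB siRNA and 36250 in the siRNA control. Background depth differs together with treatment, so their parts in the number of summits and in the deep shares cannot be told apart. Intervals on values are at 95% and cover counting error only.

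Selected transcript starts that carried deep summits are shown first. An inner start was the feature that many deep summits of at least 5 FPM shared. Each stretch runs 5′ to 3′ on the strand of its transcript, from 250 bases before the RefSeq start to 50 bases after it (GRCh38.p14), so that the start is base 251. Of the stretches shown, 5 are the starts with the highest summits of at least 5 FPM in all 4 libraries and within 50 bp of a start in the PD0332991 control. They belong to ADSS1 (chr14:104729594-104729893, plus strand), PHF19 (chr9:120868862-120869161, minus strand), DLGAP4 (chr20:36461218-36461517, plus strand), ZMYM2 (chr13:19958477-19958776, plus strand) and VKORC1L1 (chr7:65872824-65873123, plus strand). Some higher summits at starts, such as those of RASA4, MATN1 and MXI1, lay farther from the start and are not shown. DNPEP (chr2:219387863-219388162, minus strand) and MAD2L2 (chr1:11681099-11681398, minus strand) were taken from the called summits within 250 bp of a start. Among those, DNPEP stood farthest above the median shift under PD0332991 and MAD2L2 after RB siRNA. PCNA (chr20:5119909-5120208, minus strand) is shown as the start of a known E2F target. Capitals mark every GGGCGG or its reverse complement CCGCCC, with overlapping copies merged, except in ADSS1, where they mark copies of a repeated word of 20 bases.
ADSS1: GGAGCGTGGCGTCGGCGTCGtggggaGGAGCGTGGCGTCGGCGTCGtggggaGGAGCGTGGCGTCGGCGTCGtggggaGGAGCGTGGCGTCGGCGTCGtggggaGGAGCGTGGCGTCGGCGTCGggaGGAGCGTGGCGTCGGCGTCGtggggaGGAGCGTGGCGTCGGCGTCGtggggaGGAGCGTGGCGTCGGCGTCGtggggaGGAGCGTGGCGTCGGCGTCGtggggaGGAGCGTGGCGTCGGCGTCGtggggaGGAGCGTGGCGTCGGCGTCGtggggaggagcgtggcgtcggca
PHF19: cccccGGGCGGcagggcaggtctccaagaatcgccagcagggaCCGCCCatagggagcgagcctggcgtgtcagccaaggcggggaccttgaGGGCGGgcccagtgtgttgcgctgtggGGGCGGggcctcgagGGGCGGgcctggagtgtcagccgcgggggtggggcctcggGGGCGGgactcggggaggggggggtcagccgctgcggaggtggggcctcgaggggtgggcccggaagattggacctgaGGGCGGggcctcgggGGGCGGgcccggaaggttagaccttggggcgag
DLGAP4: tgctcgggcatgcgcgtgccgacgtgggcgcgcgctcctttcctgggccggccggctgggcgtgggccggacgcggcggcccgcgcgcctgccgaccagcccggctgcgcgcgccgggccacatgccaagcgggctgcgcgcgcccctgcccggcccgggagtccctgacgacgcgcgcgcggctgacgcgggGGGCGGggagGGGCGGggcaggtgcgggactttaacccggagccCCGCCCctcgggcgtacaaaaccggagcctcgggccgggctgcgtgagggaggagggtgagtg
ZMYM2: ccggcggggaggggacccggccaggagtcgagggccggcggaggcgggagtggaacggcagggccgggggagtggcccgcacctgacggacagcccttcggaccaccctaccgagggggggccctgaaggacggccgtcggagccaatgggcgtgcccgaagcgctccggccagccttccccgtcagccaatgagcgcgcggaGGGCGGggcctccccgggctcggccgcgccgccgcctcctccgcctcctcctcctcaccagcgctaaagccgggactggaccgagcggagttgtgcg
VKORC1L1: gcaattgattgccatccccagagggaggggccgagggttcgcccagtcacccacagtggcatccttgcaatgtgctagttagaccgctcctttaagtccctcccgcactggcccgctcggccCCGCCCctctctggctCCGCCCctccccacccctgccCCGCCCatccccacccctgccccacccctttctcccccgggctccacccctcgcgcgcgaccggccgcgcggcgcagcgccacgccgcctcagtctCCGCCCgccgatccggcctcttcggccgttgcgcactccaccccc
DNPEP: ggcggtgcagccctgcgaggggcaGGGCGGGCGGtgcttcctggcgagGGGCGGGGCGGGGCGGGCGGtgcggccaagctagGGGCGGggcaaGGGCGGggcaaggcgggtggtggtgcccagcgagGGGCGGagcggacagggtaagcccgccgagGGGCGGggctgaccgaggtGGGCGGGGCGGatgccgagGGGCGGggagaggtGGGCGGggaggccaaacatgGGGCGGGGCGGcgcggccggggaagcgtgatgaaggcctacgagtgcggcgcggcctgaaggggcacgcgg
MAD2L2: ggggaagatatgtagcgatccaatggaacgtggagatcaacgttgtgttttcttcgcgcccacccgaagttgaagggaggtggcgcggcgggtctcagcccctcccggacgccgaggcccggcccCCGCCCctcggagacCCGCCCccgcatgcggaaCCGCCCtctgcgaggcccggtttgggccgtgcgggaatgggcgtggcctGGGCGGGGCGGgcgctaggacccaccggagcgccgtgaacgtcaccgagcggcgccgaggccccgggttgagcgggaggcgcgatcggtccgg
PCNA: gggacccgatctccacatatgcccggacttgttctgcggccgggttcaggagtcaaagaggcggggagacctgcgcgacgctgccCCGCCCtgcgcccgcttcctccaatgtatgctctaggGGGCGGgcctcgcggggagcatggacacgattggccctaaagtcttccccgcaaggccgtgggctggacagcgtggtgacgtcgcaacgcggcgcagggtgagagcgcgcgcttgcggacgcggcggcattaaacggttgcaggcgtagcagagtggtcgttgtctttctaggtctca

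These windows differed in the density of the GC box. DNPEP held 16 copies, PHF19 held 8, MAD2L2 held 5, VKORC1L1 held 4, DLGAP4 held 3, PCNA held 2 and ZMYM2 held 1. The ADSS1 window held none and was instead a tandem repeat, with 11 copies of the marked word and 93.2% of its words of 20 bases present more than once. It also held 58 CpG dinucleotides, against 26 to 49 in the other windows shown. Below, a start counted as having a summit when a deep summit of at least 5 FPM lay within 1000 bp in any library. Starts with only a lower listed summit count as without one. Of 197 starts deep inside genes with a summit, 3 had more than 10% of such words repeated (1.52%, interval 0.315 to 4.39), and ADSS1 and PDXK had more than 50%. Among 5316 starts without one the share above 10% was 0.715% (0.506 to 0.980). Neighbouring starts can share a summit, and the intervals count each start separately.

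Apart from PCNA, the windows were chosen for a summit near the start in a given library, so that nearness is not a result. At ADSS1, the muscle form of adenylosuccinate synthase, the summits lay at base 178 of the window under PD0332991, base 201 in its control, base 204 after RB siRNA and base 75 in the siRNA control. At PHF19, an accessory subunit of the Polycomb complex PRC2, they lay at bases 221, 289, 255 and 289 in the same order of libraries. At ZMYM2, a zinc finger regulator of transcription, they lay at bases 254, 278, 221 and 283. At these genes the summits of the 4 libraries lay within the same window, partners having been required within 250 bp. The PHF19 summit of both controls was at the same base. The DNPEP summit under PD0332991 lay at base 11 of its window. The PCNA summit of the PD0332991 control lay at base 433, past the end of the printed window.

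Deep places made up a smaller share of summits than of the genome, and the share depended on height. Of all summits, 19.8% (18.4 to 21.2) were deep under PD0332991, 23.6% (22.8 to 24.5) in its control, 19.4% (17.8 to 21) after RB siRNA and 24.9% (24.0 to 25.7) in the siRNA control, where 35.8% of the bases of these chromosomes are deep. Summits below 2 FPM made up 828 of 3023 under PD0332991 and 5007 of 9185 in its control. For RB siRNA these were 696 of 2392, and for the siRNA control 6327 of 9872. Below 2 FPM the deep shares were 31.5%, 30.1%, 28.7% and 30.9% in the same order. At 5 FPM or more they were 10.4% (8.80 to 12.2), 11.2% (9.81 to 12.6), 10.98% (9.14 to 13.04) and 10.5% (8.98 to 12.1), which is 137, 225, 114 and 159 summits. The intervals of the 4 libraries overlap, and 64.2%, 65.1%, 65.5% and 67.6% of summits of that height lay within 1000 bp of a coding gene's end, which takes in 2.30% of bases.

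**Figure D1:**
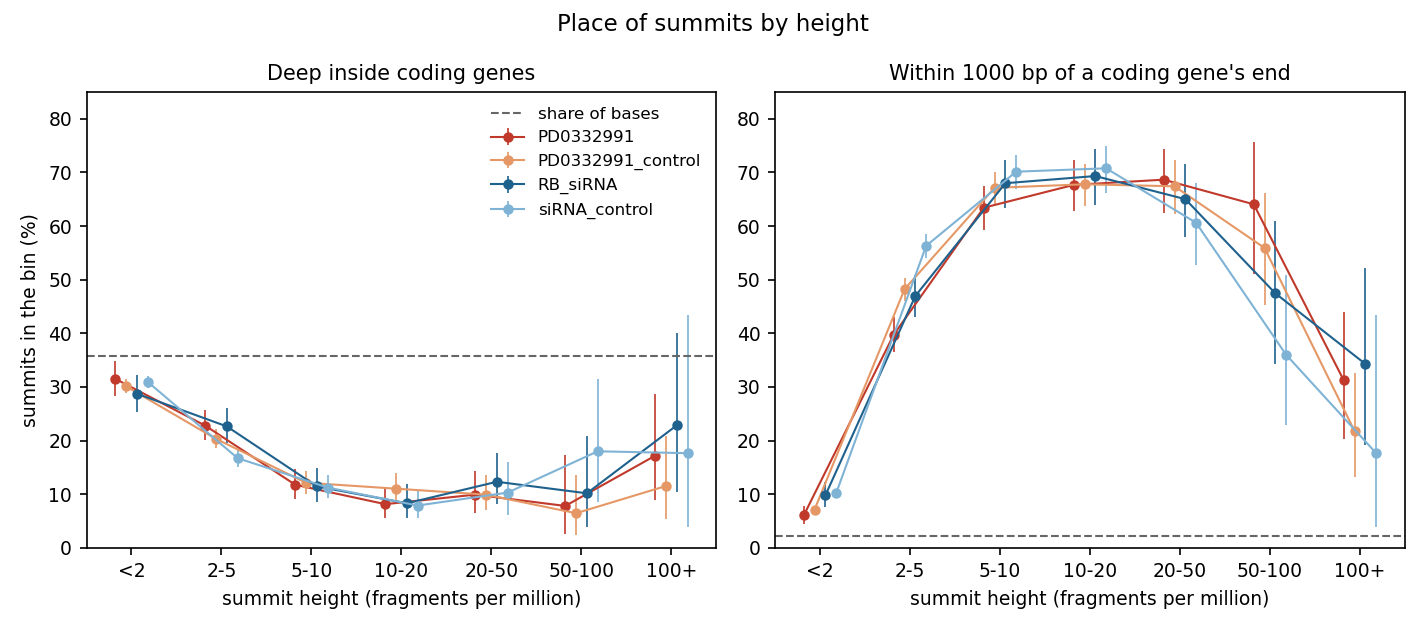
Share of summits (percent, with 95% exact binomial intervals) that lay deep inside coding genes (left) or within 1000 bp of a coding gene's end (right), by summit height in fragments per 1000000, for the 4 libraries; the dashed line is the share of bases. The deep share was lower at 5 FPM and above than below 2 FPM, where the gene-end share was low, and above 100 FPM the gene-end share was lower again.

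Among the highest summits of each library, gene ends took a smaller share. Above 100 FPM, 11 of 64 summits were deep under PD0332991, 9 of 78 in its control, 8 of 35 after RB siRNA and 3 of 17 in the siRNA control. In the same bin 31.2%, 21.8%, 34.3% and 17.6% lay at gene ends. These few deep summits included those at CELF5, ITGAE and ADSS1 in every library and at PKD1 in all but the siRNA control, described below.

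Deep summits of at least 5 FPM lay at RefSeq transcript starts inside their host genes far more often than deep bases do. Starts on chromosome 8 were not used here, so the 7, 10, 5 and 6 deep summits there were left out of this comparison. Within 1000 bp of a listed start lay 51 of 130 (39.2%, 30.8 to 48.2) under PD0332991, 91 of 215 (42.3%, 35.6 to 49.2) in its control, 48 of 109 (44.0%, 34.5 to 53.9) after RB siRNA and 73 of 153 (47.7%, 39.6 to 55.9) in the siRNA control. Such windows take in 0.963% of deep bases. Among deep summits under 2 FPM the shares were 2.82%, 4.23%, 4.71% and 4.58% in the same order. Both treated libraries had shares whose intervals overlap those of their controls.

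Most of these starts belonged to the host gene itself, and the summits tended to lie just upstream of them. A start of the host was the nearest in 45 of 51 cases under PD0332991, 81 of 91 in its control, 40 of 48 after RB siRNA and 64 of 73 in the siRNA control, while starts of long non-coding RNAs made up 6, 10, 8 and 9. The median position relative to the start was -53 bp under PD0332991, -98 bp in its control, -101.5 bp after RB siRNA and -115 bp in the siRNA control, where negative is upstream. Summits at starts had median levels of 13.6, 10.6, 12.2 and 8.33 FPM, and those elsewhere 10.5, 8.34, 11.1 and 8.48 FPM, in the same order.

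**Figure D2:**
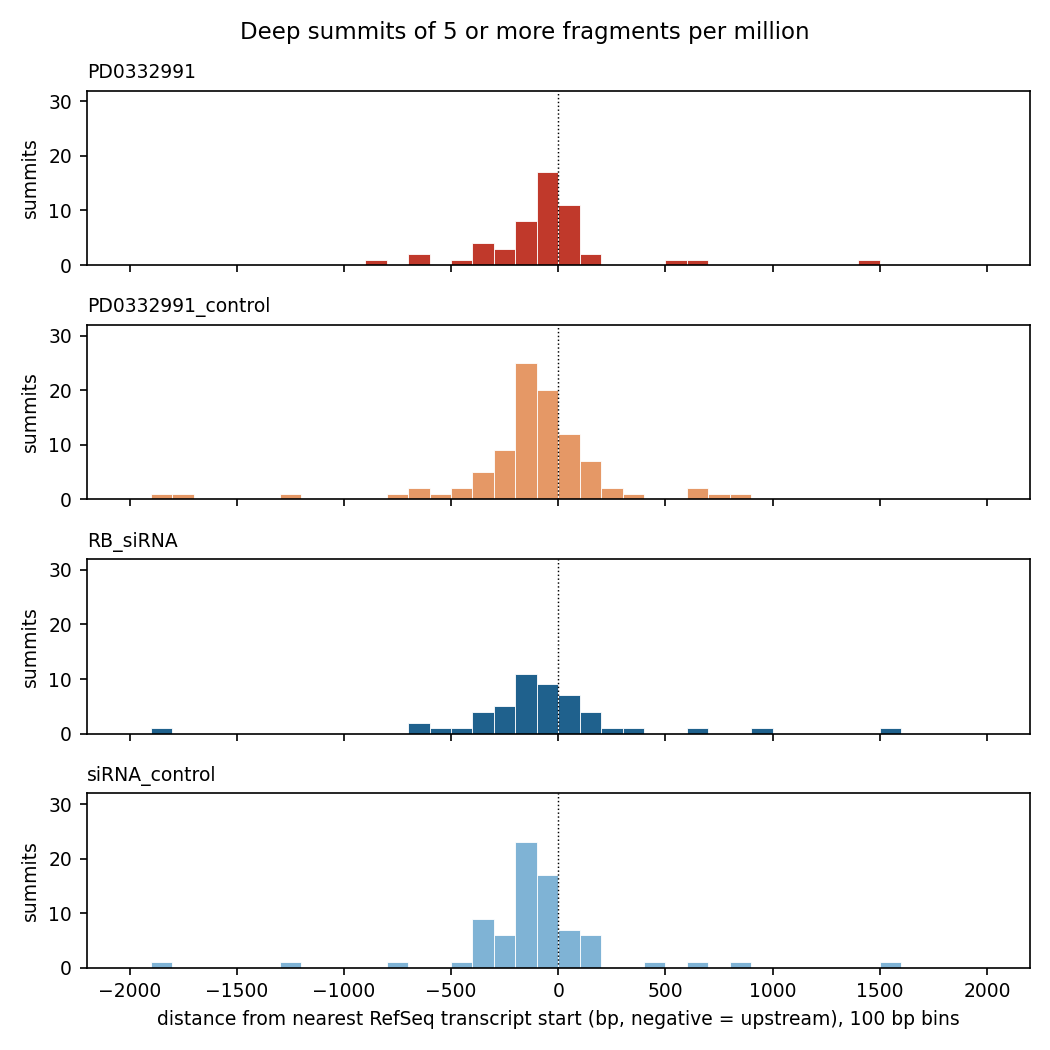
Distance in bp from deep summits of at least 5 FPM to the nearest RefSeq transcript start, in bins of 100 bp (negative is upstream of the start), for summits within 2000 bp of one, by library. In each library the summits gather at the start and just upstream of it.

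The starts with a summit were a CpG-rich subset of the starts deep inside genes. Of the starts within 1000 bp of a deep summit of at least 5 FPM in any library, 162 belonged to protein-coding genes and 35 to long non-coding RNAs. Neighbouring starts can share a summit: grouped over the libraries, these summits marked 143 places at a listed start. Their windows of 300 bases had a median GC content of 67.7%, against 49.7% at starts without such a summit and 58.7% at all 34961 listed starts. The observed over expected CpG ratio, which is near 1 where methylation has not depleted CpG, had a median of 0.838 with a summit and 0.287 without one. A ratio above 0.6, a usual criterion for a CpG island, was met by 88.3% with a summit, 22.0% without and 48.9% of all starts. The 23 starts with a summit in all 4 libraries had a median ratio of 0.894, and 95.7% of them passed 0.6. Starts without such a summit may have one below 5 FPM. Others may have a summit that was masked by a higher one in the same interval.

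**Figure D3:**
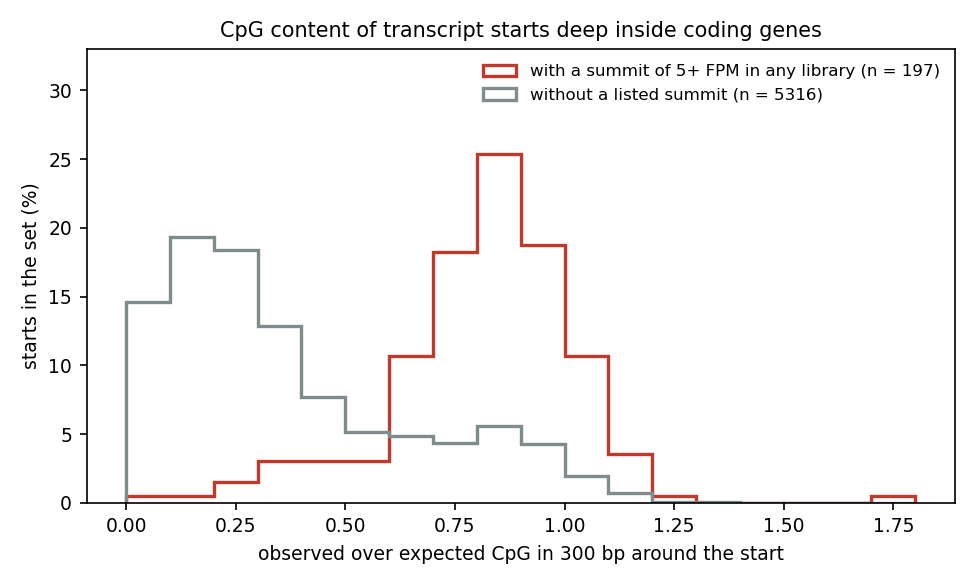
Observed over expected CpG ratio in the 300 bases around transcript starts deep inside coding genes, as percent of starts in bins of 0.1, for 197 starts with a deep summit of at least 5 FPM within 1000 bp in any library and 5316 starts without. The median was 0.838 with a summit and 0.287 without.

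Short motifs were searched on both strands in the same windows, and their letters may overlap one another. The intervals count each start separately, although neighbouring starts can share a summit and their windows can overlap. The GC box GGGCGG was in 76.6% (70.1 to 82.4) of windows with a summit, 24.7% (23.6 to 25.9) without one and 45.0% of all listed promoter windows. The ETS core CCGGAAG was in 11.2% (7.13 to 16.4) with a summit, 4.21% (3.69 to 4.79) without and 10.3% of all. The E2F letters TTTCGCGC were in 0.508% with a summit, 0.169% without and 0.518% of all, and the variant TTTGGCGC in 1.52%, 0.301% and 0.655%. Both E2F words were thus rare at these starts, in 1 and 3 windows of 197.

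The TATA box, the androgen receptor word and the AP-1 site were less frequent in windows with a summit. The TATA box TATAAA was in 2.54% (0.829 to 5.82) of windows with a summit, 15.3% (14.3 to 16.2) without and 11.5% of all. The androgen receptor word AGAACA was in 6.60% (3.56 to 11.02) with a summit, 20.3% (19.3 to 21.4) without and 14.8% of all, and the AP-1 site TGANTCA in 3.05%, 11.5% and 7.68%. The CCAAT box of NFY was in 40.1% (33.2 to 47.3) with a summit, 33.5% without and 34.6% of all. The CRE word TGACGTCA was in 2.03%, 0.959% and 1.85%, rare throughout. Base composition differs between these sets, and its part in the motif shares was not tested.

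Host genes of the higher summits were shorter than those of the lowest ones. The median host length was 141 kb under PD0332991, 93.8 kb in its control, 85.6 kb after RB siRNA and 86.8 kb in the siRNA control at 5 FPM or more. For deep summits under 2 FPM it was 389, 320, 368 and 351 kb in the same order. Chromosome 19, dense in genes, holds 1.76% of deep bases and had 7.30% (3.56 to 13.0), 11.1% (7.32 to 15.96), 7.02% (3.08 to 13.4) and 8.18% (4.43 to 13.6) of the deep summits of at least 5 FPM. The genes GSE1, NR4A1, PFKFB3, RBPJ and RPS6KA2 held more than 1 such summit in the PD0332991 control, CAMTA1 did after RB siRNA, and RASA4, RASA4B and TMEM242 did in the siRNA control. No gene did under PD0332991. RASA4 and RASA4B are near-identical copies, so reads there may be split between them.

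Grouped over the libraries, the deep summits of at least 5 FPM marked 384 places. Of these, 242 had such a summit in 1 library, 69 in 2, 37 in 3 and 36 in all 4. The share at a listed start was 33.3% (27.2 to 39.9) of the places seen in 1 library, 46.3% (34.0 to 58.9) in 2, 54.3% (36.6 to 71.2) in 3 and 48.6% (31.4 to 66.0) in 4. Places at CAMK1D, CIC and CLN6 had summits more than 250 bp from their partner, and the remaining 33 were matched in all 4 libraries by mutual nearest summits within 250 bp. Their summits lay within a median of 76 bp of each other over the 4 libraries, and 15 of the 32 on the start table were at a start.

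CELF5, ITGAE, ADSS1, PKD1, LMTK3 and RASA4 were among the 8 deep summits of highest authors' fold in every library. CELF5, an RNA-binding splicing regulator on chromosome 19, had 622 FPM under PD0332991, 487 in its control, 376 after RB siRNA and 234 in the siRNA control, with the summit at position 3285524 under PD0332991. ITGAE, the alpha chain of an integrin of intraepithelial lymphocytes, had 510, 379, 219 and 178 FPM in that order, on chromosome 17 at position 3754940. ADSS1 had 480, 475, 384 and 336 FPM, a level that is uncertain because its window is a tandem repeat. The siRNA control was lowest at each of these places, and ADSS1 differed between PD0332991 and its control by less than counting error. Against the median of all shared summits ADSS1 was called below in both treated comparisons, as given below.

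The CELF5 and ITGAE summits were far from any listed start, 60863 bp and 46248 bp downstream of the nearest one under PD0332991. Sequence was not examined at these places or at LMTK3, so they were not checked for tandem repeats. The authors' fold at CELF5 was 6.72 under PD0332991, 17.8 in its control, 3.87 after RB siRNA and 9.47 in the siRNA control. This fold is over the modelled background plus the pseudocount, and it was lower in each treated library than in its control, whereas the FPM at CELF5 were higher there. Folds themselves were compared only within a list, to rank summits.

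PKD1, which encodes polycystin-1 of the primary cilium, had 277 FPM under PD0332991, 275 in its control, 137 after RB siRNA and 59.5 in the siRNA control. Its summit on chromosome 16 lay 7685 bp from the nearest start in both libraries of the PD0332991 pair, and PKD1 has near-identical copies on the same chromosome, so the level is uncertain. LMTK3, a membrane kinase, had 201, 176, 132 and 86.8 FPM in the same order. Both had their lowest value in the siRNA control, and PKD1 was nearly equal under PD0332991 and in its control.

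RASA4, a calcium-regulated Ras GTPase-activating protein, had 174 FPM under PD0332991, 147 in its control, 107 after RB siRNA and 86.5 in the siRNA control, at position 102592771 on chromosome 7 in all 4 libraries, at -306 bp from a long non-coding RNA start. MATN1, a cartilage matrix protein, had 156, 132, 92.0 and 64.7 FPM near the start of the antisense RNA MATN1-AS1. PIK3R5, the adaptor of the gamma form of phosphoinositide 3-kinase, had 158, 129, 111 and 52.3 FPM. The same order of libraries, PD0332991 first and the siRNA control last, held at each of these places.

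MXI1, an antagonist of MYC, had 104 FPM under PD0332991, 126 in its control, 73.5 after RB siRNA and 44.3 in the siRNA control, with the summit of the PD0332991 control 770 bp downstream of an inner MXI1 start. CIC, the capicua repressor, had 103, 89.9, 102 and 96.0 FPM close upstream of an inner CIC start. The CIC level differed less between libraries than that of the other places described so far. SLCO5A1, a member of the organic anion transporter family on chromosome 8, was likewise even, with 67.6, 48.8, 55.7 and 55.8 FPM.

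Below these came places at inner starts. DNPEP, an aspartyl aminopeptidase, had 90.6 FPM under PD0332991, 37.8 in its control, 50.8 after RB siRNA and 29.3 in the siRNA control. PHF19 had 52.9, 54.5, 36.7 and 22.1 FPM. DLGAP4, a postsynaptic scaffold protein, had 25.7, 18.3, 23.5 and 34.5 FPM. DLGAP4 went against the usual order, with its highest level in the siRNA control.

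Other places at inner starts of their host genes followed at lower levels. SEC14L1, a lipid-binding protein, had 29.3 FPM under PD0332991, 31.7 in its control, 21.5 after RB siRNA and 11.8 in the siRNA control. VKORC1L1, a vitamin K epoxide reductase, had 26.2, 22.8, 12.8 and 10.3 FPM in that order. ZMYM2 had 25.1, 19.5, 11.6 and 16.1 FPM. RPS6KA2, a ribosomal S6 kinase, had 16.2, 10.98, 21.05 and 11.2 FPM, so that its highest level was after RB siRNA.

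Among places away from listed starts, PRKCZ, the zeta form of protein kinase C, had 60.2 FPM under PD0332991, 52.1 in its control, 38.4 after RB siRNA and 27.3 in the siRNA control. ATF3, a stress-induced transcription factor, had 48.2, 42.3, 41.3 and 27.9 FPM in the same order, at -6416 bp from the nearest start in the PD0332991 control. NR4A1, an immediate early nuclear receptor, had 25.7, 28.5, 22.7 and 15.2 FPM. HFM1, a helicase of meiosis, had 49.2, 43.9, 41.3 and 33.05 FPM with the 4 summits within 4 bp of each other. The siRNA control was again the lowest at each of these places.

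Several inner starts had a summit of at least 5 FPM in 3 libraries and a masked or missing one in the fourth. UBE2D3, a ubiquitin-conjugating enzyme, had 13.6 FPM under PD0332991, 12.6 in its control and 12.4 in the siRNA control, and the interval after RB siRNA listed a higher summit elsewhere, with 17.7 FPM. KANSL1, a subunit of a histone acetyltransferase complex, had 9.95, 12.6 and 8.33 FPM in the same 3 libraries. RBPJ had 19.1 FPM in the PD0332991 control, 28.1 after RB siRNA and 24.7 in the siRNA control, while under PD0332991 the listed summit lay at another place in the same gene with 21.5 FPM. CHD9, a chromatin remodeller, had 23.05 FPM under PD0332991, 15.3 after RB siRNA and 10.3 in the siRNA control and fell in a gap in the PD0332991 control. A missing summit at these starts was therefore no evidence of a lower level.

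Of the 33 places in all 4 libraries, the level was highest under PD0332991 at 24, in the PD0332991 control at 5, after RB siRNA at 2 and in the siRNA control at 2. It was lowest in the siRNA control at 23. The median over the 33 was 45.0 FPM under PD0332991, 35.8 in its control, 23.9 after RB siRNA and 22.99 in the siRNA control. The median of all shared summits, deep or not, was shifted the same way in each comparison, so the comparisons below are read against that common shift.

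**Figure D4:**
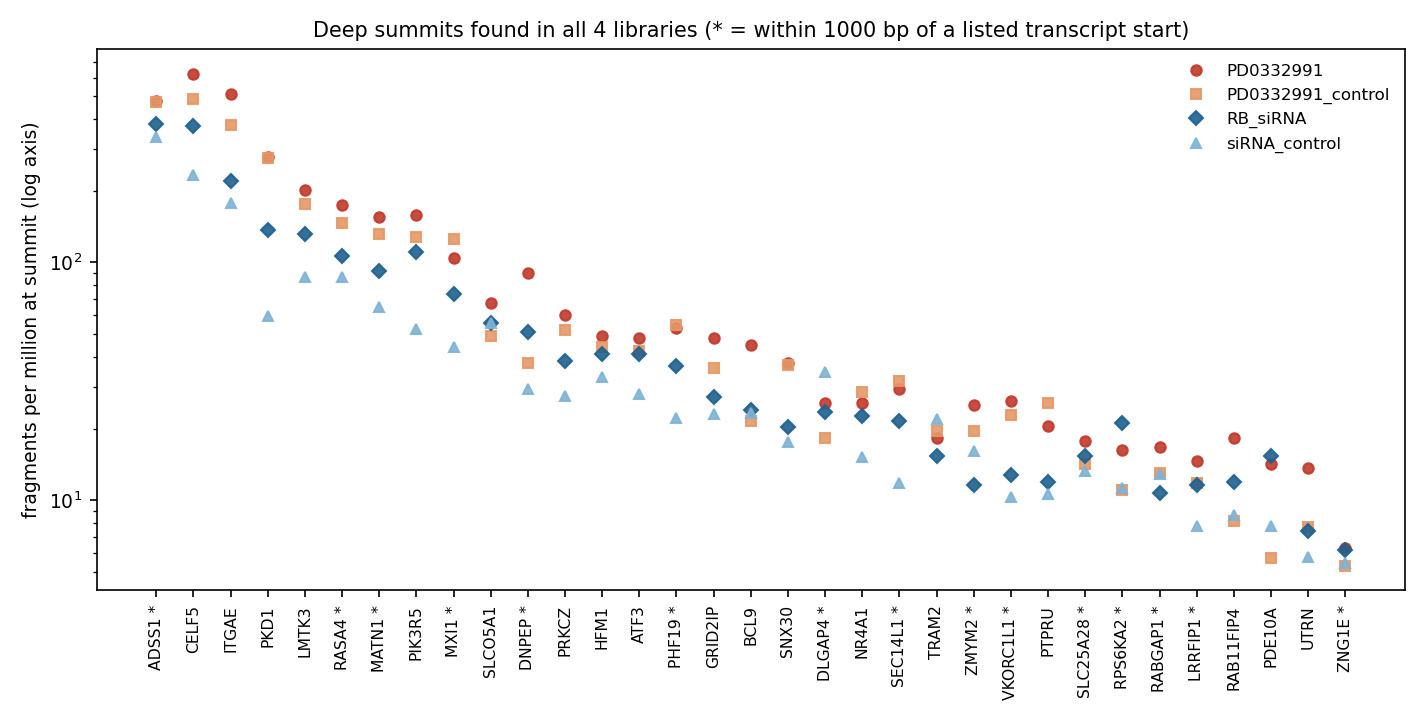
Level (fragments per 1000000, log axis) of the 33 deep places with at least 5 FPM in all 4 libraries, named by host gene and ordered by geometric mean; each point is 1 library, and a star marks a place within 1000 bp of a listed transcript start. PD0332991 gave the highest point at 24 places and the siRNA control the lowest at 23; SLCO5A1 is on chromosome 8, whose starts were not used.

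For PD0332991 against its control, 879 summits of a mean of at least 5 FPM were shared, with a median log2 ratio of 0.19. The 73 deep ones had a median of 0.20 (quartiles -0.10 and 0.43), the same shift as all summits. A shared summit was called when the interval of its ratio excluded the median of all 879, which 17% of them did, 9.22% above and 7.74% below. Of the deep ones 8 were above and 8 below, or 21.9% (13.1 to 33.1). Set against a log2 ratio of 0 instead, 15 were above and 2 below, so the split between higher and lower rests on the common shift. Such calls compare these libraries, not the conditions.

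The called deep places that stood farthest above the shift under PD0332991 included both inner starts and places with none. NFKBIZ, a nuclear regulator of NF-kappaB, had 13.6 FPM under PD0332991 and 4.47 in its control, from 26 and 11 fragments (log2 ratio 1.61, 0.54 to 2.77), at -382 bp from an inner NFKBIZ start. DNPEP had 173 fragments under PD0332991 and 93 in its control (log2 ratio 1.26, 0.89 to 1.64), the best counted of the larger differences. PDE10A, a cyclic nucleotide phosphodiesterase, had 14.1 FPM under PD0332991 and 5.69 in its control (log2 ratio 1.31, 0.33 to 2.36). RAB11FIP4, an effector of Rab11 vesicles, had 18.3 and 8.13 FPM (1.17, 0.34 to 2.04), and BCL9, a coactivator of beta-catenin, 45.0 and 21.6 FPM (1.06, 0.55 to 1.59). All of these exceeded their control, while NFKBIZ and PDE10A rest on 27 fragments or fewer in each library. The last of the 6 called places farthest above was at CERS1 and GDF1, which share a transcript, with 107 FPM under PD0332991 and 75.2 in its control (0.51, 0.21 to 0.80). The other places called above the shift were ITGAE (0.43, 0.30 to 0.56) and CELF5 (0.35, 0.24 to 0.47).

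Below the shift the largest difference was at FMN2, a formin that nucleates actin filaments. FMN2 had 4.19 FPM under PD0332991 and 16.3 in its control, from 8 and 40 fragments (log2 ratio -1.96, -3.26 to -0.84). TNFRSF1A, the main receptor of TNF, had 5.76 FPM under PD0332991 and 11.8 in its control (-1.03, -2.18 to 0.01). MEGF6 had 10.5 and 16.3 FPM (-0.64, -1.49 to 0.17), and CLCN5, an endosomal chloride and proton exchanger, 20.4 and 27.2 FPM (-0.42, -1.02 to 0.17). LTBP4, a binding protein of latent TGF-beta, had 47.7 and 58.6 FPM (-0.30, -0.69 to 0.09), and MXI1 had a log2 ratio of -0.27 (-0.53 to -0.01). Only FMN2 and MXI1 among these 6 had intervals that excluded a log2 ratio of 0 as well as the shift. The levels of FMN2 in the siRNA pair were 7.43 FPM after RB siRNA and 3.74 in the siRNA control, so its PD0332991 control was the highest of the 4 libraries. The other places called below the shift were ADSS1 (0.02, -0.11 to 0.14) and PKD1 (0.01, -0.16 to 0.18), whose levels were nearly equal in both libraries.

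For RB siRNA against the siRNA control the median log2 ratio of 743 shared summits was 0.45, and the 63 deep ones had a median of 0.49 (quartiles 0.18 and 0.80). Calls took in 13.7% of all shared summits, 7.94% above and 5.79% below. Of the deep ones 4 were above and 7 below, or 17.5% (9.05 to 29.1). Set against 0, 29 were above and 1 below.

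MAD2L2, a partner of the translesion polymerase zeta and of shieldin, stood farthest above the shift after RB siRNA. It had 12.8 FPM after RB siRNA and 4.31 in the siRNA control, from 31 and 15 fragments (log2 ratio 1.57, 0.64 to 2.56), both at -47 bp from the printed start. PKD1 had a log2 ratio of 1.20 (0.94 to 1.46), PIK3R5 of 1.09 (0.81 to 1.37) and CELF5 of 0.68 (0.55 to 0.82). PKD1, PIK3R5 and CELF5 were also above the shift when the PD0332991 control was set against the same siRNA control. CELF5 was above the shift for PD0332991 against its control as well.

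Below the shift lay DLGAP4 (log2 ratio -0.55, -1.03 to -0.09), TRAM2, a membrane protein of the endoplasmic reticulum (-0.52, -1.12 to 0.07), and ZMYM2 (-0.48, -1.19 to 0.20). Of these, DLGAP4 alone had an interval that excluded 0 on the lower side. ZMYM2 had 11.6 FPM after RB siRNA and 16.1 in the siRNA control, from 28 and 56 fragments. SLCO5A1 (0.00, -0.33 to 0.32), TMEM242 (0.01, -0.37 to 0.39) and CIC (0.08, -0.16 to 0.32) were called below only because all summits were shifted up, and their own levels were nearly equal in both libraries. ADSS1 (0.19, 0.07 to 0.32) was also called below the shift, although its level was higher after RB siRNA.

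The controls differed from each other at least as much as treated libraries did from theirs. For the PD0332991 control over the siRNA control, 1186 summits were shared with a median log2 ratio of 0.59, and 20.3% were called, 11.9% above and 8.43% below. Of the 95 deep ones, with a median of 0.50, 18 were above and 10 below, or 29.5% (20.6 to 39.7), and 33 were above and 1 below when set against 0. This comparison shares its libraries with the other 2, so its values are not independent of theirs.

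The largest differences between the controls were at places away from listed starts. DCLK2, a doublecortin-like kinase, had 15.5 FPM in the PD0332991 control and 1.72 in the siRNA control, from 38 and 6 fragments (log2 ratio 3.16, 1.91 to 4.70). CLCN5 had 27.2 and 3.45 FPM (2.98, 2.08 to 4.0), PKD1 275 and 59.5 FPM (2.21, 1.98 to 2.44) and FMN2 16.3 and 3.74 FPM (2.12, 1.19 to 3.15). CUX1, a homeobox factor, had 11.4 and 3.16 FPM (1.85, 0.80 to 3.0). All of these were higher in the PD0332991 control, by larger factors than at any shared deep place between a treated library and its control other than FMN2.

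Below the shift between the controls, DLGAP4 had a log2 ratio of -0.91 (-1.44 to -0.41), CLN6 of -0.66 (-1.72 to 0.33) and IPO5, an importin, of -0.61 (-1.68 to 0.39). PDE10A (-0.45, -1.49 to 0.54), RBPJ, the DNA-binding effector of Notch (-0.37, -0.92 to 0.16), and SLCO5A1 (-0.19, -0.53 to 0.14) followed. DLGAP4 alone excluded 0. Its place was thus below the shift in both comparisons against the siRNA control, which share that library.

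Places at starts and places elsewhere were also counted apart. In the PD0332991 comparison 2 above and 2 below were called of 33 at starts (12.1%, 3.40 to 28.2), and 6 above and 6 below of 37 elsewhere (32.4%, 18.01 to 49.8). In the RB siRNA comparison 16.1% (5.45 to 33.7) of 31 at starts and 17.2% (5.85 to 35.8) of 29 elsewhere were called. Between the controls it was 15.6% (6.49 to 29.5) of 45 at starts and 44.4% (29.6 to 60) of 45 elsewhere. The log2 ratios spread more widely elsewhere, with SDs of 0.74 elsewhere and 0.42 at starts for PD0332991 and of 0.83 and 0.53 between the controls, but not after RB siRNA, with 0.42 and 0.51. The intervals of the shares overlap in the PD0332991 and RB siRNA comparisons and just miss each other between the controls, and the difference itself was not tested. Over all shared summits 16.95% were called for PD0332991, 13.7% for RB siRNA and 20.3% between the controls. Among those of at least 20 FPM the shares were 28.05%, 26.75% and 40.8%, so calls depend on height. Heights at starts and elsewhere were not matched.

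**Figure D5:**
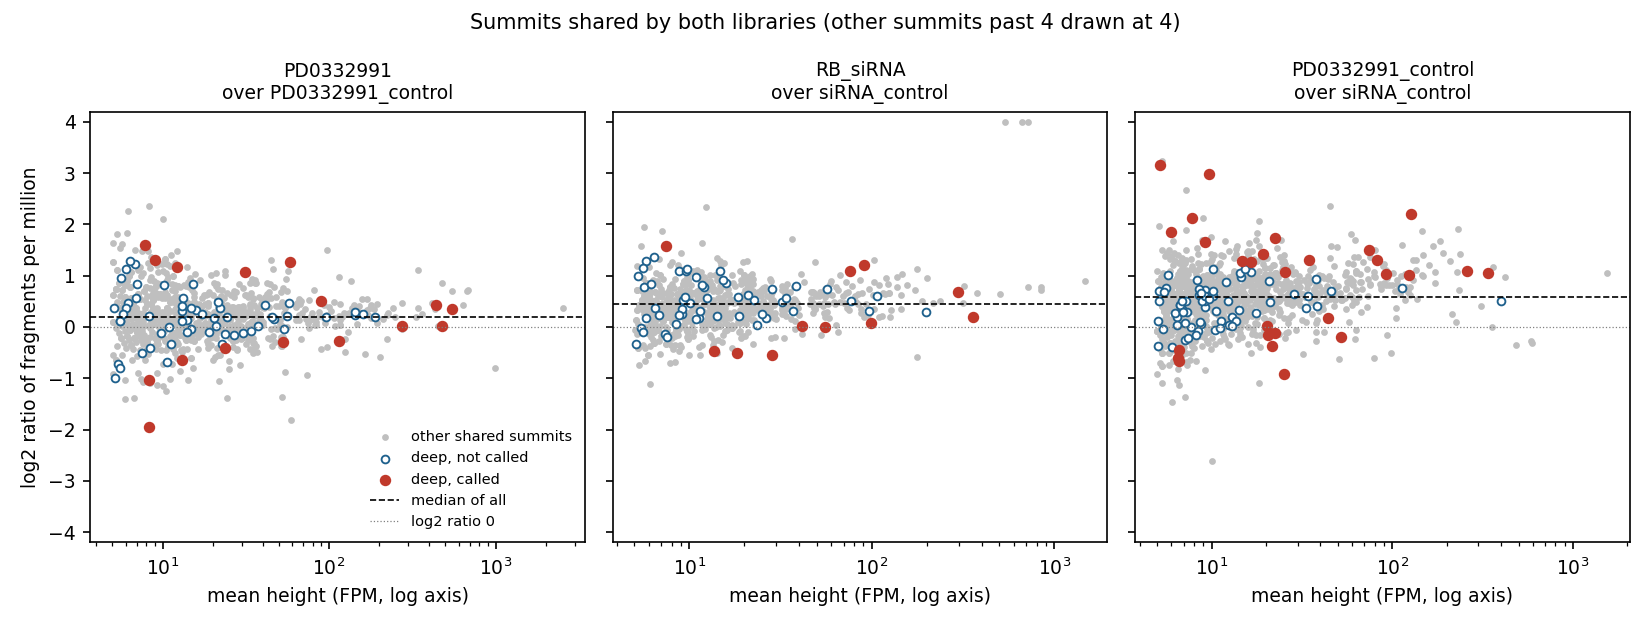
Log2 ratio of fragments per 1000000 against the mean level (log axis) for summits shared by the libraries of each comparison: PD0332991 over its control, RB siRNA over the siRNA control, and the PD0332991 control over the siRNA control. Grey points are other summits, open blue points deep summits not called and red points deep summits called; the dashed line is the median of all. Deep summits follow the common shift in each panel, and the widest spread is between the controls.

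Many deep summits of at least 5 FPM had no partner within 250 bp in the other library. Under PD0332991 these were 57 of 137, of which 13 were masked by a higher summit in the control's interval, 18 fell in a gap between the control's intervals, 21 were within counting error of the highest level the interval allows and 5 were beyond it. Beyond means here, as for shared summits, that the interval of the ratio to that level lay past the median shift of the comparison, taken in the direction of the library with the summit. RAB38, RGS3, SLC10A7 and VPS13B under PD0332991 had intervals that excluded a log2 ratio of 0 but not the shift. In the PD0332991 control they were 157 of 225, with 121 masked and 8 beyond counting error. After RB siRNA they were 43 of 114, with 11 masked and 5 beyond, and in the siRNA control 100 of 159, with 86 masked and 5 beyond. The wide intervals of the treated libraries masked most unpartnered summits of the controls, so these counts give no measure of loss.

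Those beyond counting error, named after their values were seen, were led by TP73 and PRDM11. TP73, a p53 family gene with a known inner promoter, had 49.8 FPM under PD0332991, where the control's interval allows at most 16.7, and 24.3 after RB siRNA at a base next to it. The siRNA control listed no interval there. The summit lay 22641 bp from the nearest coding gene end and was not at a listed start. PRDM11 had 26.2 FPM under PD0332991 and at most 1.22 (3 fragments) in its control, against 6.60 after RB siRNA and 3.16 in the siRNA control. Both places were therefore highest under PD0332991 among the libraries that gave a value.

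The other summits beyond counting error under PD0332991 were at ACAN, CLSTN2 and DPP6, with 5.76 to 9.43 FPM. After RB siRNA they included SFMBT2, PDE11A, TENM2 and TRAPPC9, with 5.36 to 8.25 FPM. In the PD0332991 control against PD0332991 they were at ARHGAP21, PAX6, KATNAL2, TWIST2, TAFA5, DCLK2, SMOC2 and DOCK5, with 6.51 to 15.5 FPM. In the siRNA control against RB siRNA they were at CASZ1, FAM20B, CAMK1D, L3MBTL1 and KHDRBS3, with 5.17 to 10.6 FPM. The intervals at PAX6 and DCLK2 in the PD0332991 control and at FAM20B, CAMK1D and L3MBTL1 in the siRNA control excluded the shift but not a log2 ratio of 0. All of these are small counts.

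The lists of genes were read against all 13342 eligible genes. Of these, 3.87% held a deep summit of any height under PD0332991, 11.9% in its control, 3.23% after RB siRNA and 12.4% in the siRNA control, and 1.05%, 1.67%, 0.862% and 1.18% in that order held one of at least 5 FPM. Host genes differ in length, and the shares of a list were not corrected for it. Of 23 genes for cyclins, CDKs, RB proteins and E2F factors that are long enough to hold one, 0, 2, 0 and 1 held one of any height under PD0332991, in its control, after RB siRNA and in the siRNA control. These are shares of 0%, 8.70%, 0% and 4.35%. None of the 23 had one of at least 5 FPM in any library. At the rates over all genes, 0 of 23 does not set the list apart. PCNA, the sliding clamp of DNA replication and a known E2F target, sat at the limit of the rule. Its RefSeq span begins upstream of the start printed above, and the summit at -28 bp from that start had 15.7 FPM after RB siRNA and 9.20 in the siRNA control (log2 ratio 0.77, 0.05 to 1.5, not called against the shift). In the PD0332991 control it had 18.3 FPM at a base 4823 bp from the gene end and so was not deep. Under PD0332991 the interval listed its summit at another place with 14.7 FPM, so PCNA had at most that level there.

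Of 21 eligible genes of the prostate lineage and the androgen response, 0, 6, 2 and 3 held a deep summit of any height in the same order of libraries. In that list 0 had a deep summit of at least 5 FPM under PD0332991, 3 in its control (ABCC4, GRHL2 and KRT8), 1 after RB siRNA (ABCC4) and 1 in the siRNA control (KRT8). The share at that height was 14.3% in the PD0332991 control and 4.76% in each siRNA library, above the share of all genes in these 3 libraries, from 1 to 3 genes each. ABCC4, a drug and prostaglandin transporter, had 6.10 FPM in the PD0332991 control and 6.19 after RB siRNA, against 2.01 in the siRNA control. Under PD0332991 it had at most 2.62 FPM. The GRHL2 and KRT8 places of the PD0332991 control were masked under PD0332991 by higher summits of 57.6 and 25.7 FPM. After RB siRNA the masking summits had 45.4 and 22.7 FPM. The missing summits at GRHL2 and KRT8 there thus give no measure of loss. Of 18 eligible genes that mark blood, endothelial or liver cells, 0 had one in any of the 4 libraries, and 0, 1, 1 and 3 had a deep summit of any height under PD0332991, in its control, after RB siRNA and in the siRNA control. These were 0%, 5.56%, 5.56% and 16.7% of the list.

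Very long genes, many at fragile sites, held deep summits more often than all genes. Of 32 eligible genes, 17 held a deep summit of any height under PD0332991, 31 in its control, 15 after RB siRNA and 31 in the siRNA control, and 5, 1, 1 and 2 held one of at least 5 FPM. These were 53.1%, 96.9%, 46.9% and 96.9% at any height and 15.6%, 3.12%, 3.12% and 6.25% at 5 FPM, each above the share of all genes in the same library. The median length that could hold a deep summit was 1410 kb in this list and 32.7 kb in all genes. DLG2, a synaptic scaffold protein, had 29.9 FPM under PD0332991, 27.2 after RB siRNA and 18.97 in the siRNA control at the same place, 143192 bp downstream of the nearest start, and fell in a gap in the PD0332991 control. CSMD1, DPP10 and PTPRD had 6.81 to 8.90 FPM under PD0332991, DPP10 had 5.75 in the siRNA control, and AUTS2 had 5.29 in the PD0332991 control.

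The remaining lists gave few genes. Of 47 eligible chromatin regulators, 0%, 4.26%, 2.13% and 2.13% had a summit of at least 5 FPM under PD0332991, in its control, after RB siRNA and in the siRNA control. KDM4C, a histone H3 lysine demethylase, had 11.8 FPM in the PD0332991 control, 9.49 after RB siRNA and 8.05 in the siRNA control at an inner KDM4C start, and KDM4B had 8.13 FPM in the PD0332991 control. Of 19 eligible nuclear receptor coregulators, 1 in each library had a summit of that height (5.26%), and under PD0332991 it was the coactivator NCOA2, with 7.33 FPM. Of 15 genes known for inner promoters, 2 had a summit of that height under PD0332991 (TP73 among them), 1 in its control (AUTS2), 1 after RB siRNA (TP73) and 0 in the siRNA control, or 13.3%, 6.67%, 6.67% and 0% beside the shares of all genes above. Of 18 eligible ETS factor genes, 0 had one in any library. No list had a member with a deep summit of that height in all 4 libraries.

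The limit of 5000 bp cut through a continuous run of places. Just inside it under PD0332991 were MATN1 (5176 bp, 156 FPM) and DPF1 (5331 bp, 5.24 FPM), and just outside GATA2 (4847 bp, 11.5 FPM) and TBC1D22A (4952 bp, 8.90 FPM). In the PD0332991 control MEIG1 (5154 bp, 8.13 FPM) and GPR84 (5156 bp, 10.98 FPM) were inside, and PCNA and TACR2 (4845 bp, 6.51 FPM) outside. After RB siRNA PCNA (5033 bp) and SNX12 (5094 bp, 7.02 FPM) were inside, and SIN3A (4833 bp, 52.8 FPM) and KCNIP2 (4847 bp, 45.4 FPM) outside. In the siRNA control PCNA and MYO1F (5062 bp, 12.6 FPM) were inside, and COL23A1 (4809 bp, 6.90 FPM) and ANKRD54 (4918 bp, 9.48 FPM) outside.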

How the data were processed

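Chromatin of 22RV1 cells was profiled in 4 libraries, 1 per group. Reads were handled with bcl2fastq 2.17, Trimmomatic 0.33, Bowtie2 (version given as 2) and MACS2 2.1.0 on hg38, per the submitters' processing notes, which give no settings. Each deposited list holds 1 library, with the authors' score (cut down to whole numbers), their fold of treatment over background, a ratio, and their −log10 p and −log10 q at the summit. These are the authors' values. As deposited they only rank or filter summits within a list, and the levels in fragments per 1000000 (FPM) were derived from them.

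The fold and p of each summit were solved for whole treatment fragments with the MACS2 pseudocount of 1. All but 1 summit under PD0332991, 3 in its control, 1 after RB siRNA and 1 in the siRNA control came out whole within 0.05. A large window of 10000 bp gave fragment lengths and an assumed genome of 2.7 Gb the totals. Both were assumed, so FPM depend on them. The solver was tested on simulated lists. PCR reads are not independent molecules, so intervals (exact binomial or exact conditional, 95%) cover counting error only.

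Partners were mutual nearest summits no more than 250 bp apart. Those whose geometric mean reached 5 FPM were compared, and a pair was called when its interval excluded the median of all shared summits. Starts came from RefSeq promoter windows (GRCh38.p14), and those on chromosome 8 were not used here. Exon positions were not used here, so exon or intron was not assigned, and motifs at summits away from starts were not searched. The 1000 bp window for starts was chosen after seeing the data. Python 3.11.15, numpy 2.4.6, scipy 1.17.1, pandas 2.3.3 and matplotlib 3.10.9 were used.

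The members, gene lists and tests were chosen with earlier results of these data known. Named genes are the hosts, per library, of the 8 deep summits of highest fold, up to 12 in all 4 libraries by level, up to 6 called per direction and comparison, list members at 5 FPM or more, and the 2 nearest the 5000 bp limit on each side. Other named genes, including those shown by sequence, were chosen after their values were seen. The results of some genes are not reported here. Alternatives covered the distance from gene ends, chromosome ends, q, the FPM minimum, the partner distance, the centre of the ratios and the start window.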

Additional observations from a re-analysis of the deposited data

How the results depend on the processing

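Of 149 alternatives, 94 left the value within its error or its count within 1.5 times, 55 moved it and 0 reversed a direction. Shares and counts carry no sign, so only a median log2 ratio could be counted as reversed. The balance of calls did change side. For RB siRNA, 4 called above and 7 below in the main setting became 29 and 1 against a log2 ratio of 0. Values in each list are for PD0332991, its control, RB siRNA and the siRNA control. With 2000 bp from coding-gene ends the deep share became 22.6%, 26.4%, 22.3% and 27.6%, and at 5 FPM or more 13.7%, 15.2%, 14.3% and 13.6%. With 10000 bp it became 17.7%, 20.8%, 16.6% and 22.3%, and at 5 FPM or more 8.58%, 7.88%, 7.42% and 7.38%. With a −log10 q of at least 5 only 12, 72, 3 and 25 summits remained, and the deep share was 25%, 12.5%, 0% and 16%. At 5 FPM or more it was 25%, 0% and 16% for PD0332991, RB siRNA and the siRNA control. With a minimum of 2 FPM the deep share at that height was 15.4%, 15.9%, 15.5% and 14.1%.

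Counts of called deep summits depended on the settings. For PD0332991 those above became 5 with partners within 100 bp, 15 against a log2 ratio of 0 and 0 with the q limit. Those below became 5 at 10000 bp, 2 against 0 and 1 with the q limit, where the median of 3 was 0.35. For RB siRNA those above became 8 at 2000 bp, 1 at 10000 bp, 8 with chromosome ends kept and 29 against 0, and those below became 4 with partners within 100 bp and 1 against 0. Between the controls those above became 28 with chromosome ends kept, 10 at 10 FPM, 33 against 0 and 2 with the q limit. Those below became 1 against 0 and 1 with the q limit, where the median was 1.04. The q limit left no shared deep summit to compare for RB siRNA. No place in all 4 libraries passed the q limit, so that count was 0. Fewer summits enter at 10000 bp, at 10 FPM and with the q limit, and the cause of the other moves was not tested.

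The share of deep summits at a start, alternatives chosen after seeing the data, became 24.4%, 27.1%, 29.9% and 32.2% with a minimum of 2 FPM. With starts within 250 bp it became 33.5%, 33.03% and 36.6% in the PD0332991 control, RB siRNA and the siRNA control. The shares at 2 FPM remained above the 0.963% of deep bases within 1000 bp of a start. Those within 250 bp remained above the 0.258% of deep bases in that narrower window. No paired analysis was possible because each group has 1 library and the labels carry no replicate numbers, and no library could be left out. Levels near 5 FPM rest on few fragments, and summits masked by a higher one in the same interval have no level.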
